A study of Mus musculus with 6 samples.

Results

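Leukocyte genes were examined in the chromatin accessibility profile of the mouse kidney, an organ built mainly of tubular epithelium that also holds resident macrophages and fewer lymphocytes. The 10 genes are Ptprc, Adgre1, Csf1r, Cd68, Cd3e, Cd4, Cd79a, Itgam, Cx3cr1 and Spi1, which are widely used to recognise leukocytes, macrophages, T cells and B cells. They were taken by name from the 21757 protein-coding genes of the GENCODE M39 annotation. A gene's region ran from 3 kb upstream of its start to its end, and every accessible interval that overlapped the region was counted. Of the 279569 distinct intervals in the peak list, 68 fell in the regions of the 10 genes, and each gene had at least 1.

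ATAC-seq, in which the Tn5 transposase inserts adapters into open chromatin, was carried out on nuclei isolated from kidneys, from the cortex by the methods, in 6 libraries. The 3 WT libraries came from mice without Cre, which the methods describe as littermates carrying Acly fl/fl, in batches 1 and 2. The 3 Acly cKO libraries came from Acly fl/fl mice with Ksp-Cre (Cdh16-Cre), which removes the enzyme ACLY from the tubular epithelium, proximal, distal and collecting duct segments included, so that the deletion was not directed at leukocytes. They belonged to batches 4 and 5, so that batch and genotype cannot be told apart. All were labelled as control treatment, and the labels give no age. The methods count 2 more WT kidneys than the labels of this series, and which libraries entered the pool is not given in the sources used here. By its peak names, the list is 1 call over pooled libraries, with no value per library. The study describes a much smaller set of peaks, whose selection is not given in the sources used here, so that the shares below refer to the deposited list, weak intervals included. WT and Acly cKO were therefore not compared, no replicate error exists, and all values below are descriptions without a test. In nuclei of bulk tissue, fewer cells of a type and less accessible chromatin per cell cannot be told apart.

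Accessible chromatin marks promoters, where transcription starts, and enhancers, which can lie in introns or far from the gene. Promoters of leukocyte genes are often poor in CpG dinucleotides and depend on lineage factors such as PU.1, the product of Spi1, which directs the development of macrophages and B cells. RUNX, IRF, C/EBP and EBF proteins are further families of leukocyte regulators, while HNF1 and HNF4 serve the tubular epithelium.

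Most of the 10 genes showed little accessible chromatin at their starts beside all protein-coding genes, with Csf1r and Cd68 as exceptions. All 10 had promoters poor in CpG, as defined below, and genes of that class in general also had little there. The strongest intervals away from the starts of other protein-coding genes lay in Csf1r, Spi1 and Ptprc, inside or just upstream of the gene. Each interval was described by its fold enrichment, the ratio of the read pile-up at its highest summit to the background of the peak caller, and by its -log10 q. An interval counted as strong from a fold enrichment of 5. Of the 68 intervals, 15 were strong (22.1%), beside 24.5% of all intervals, so that the share was close to the background. The median fold enrichment was 2.62, beside 2.55 over all intervals, and the median width was 475.5 bp beside 434 bp. However, 3 of the 15 strong intervals reached within 1 kb of the start of another protein-coding gene. The other 12 overlapped the regions of Spi1 (5), Ptprc (4), Csf1r (2) and Cd3e (1). The Spi1 interval of 8.05 did so with its end only, and its highest summit lay before the region.

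Sequences of 8 of those 12 intervals, the 4 of Ptprc and 4 of the 5 of Spi1, were read from GRCm39 and are shown because they hold open chromatin that these loci had away from gene starts. Each summit window is 200 bp around the highest summit and is written in the direction of the gene. Labels give the place of the summit, and the distal intron 20 window of Ptprc also overlaps an exon. The windows of Cd3e and of the strongest Spi1 interval were left out because they held untranslated sequence, and those of Csf1r are not printed. Capitals mark exact matches, on either strand, to the motifs searched, which were GAGGAAGT for PU.1, TGTGGTT for RUNX, GAANNGAAA for IRF, TTNNGCAA for C/EBP, CCCNNGGGA for EBF, TGCTGANTC for MAF, CANCTG for the E-box, GGGCGG for the GC box, GTTAATNAT for HNF1 and CAAAGTCCA for HNF4.
Ptprc intron 20, distal summit, chr1:138011510-138011709, minus strand: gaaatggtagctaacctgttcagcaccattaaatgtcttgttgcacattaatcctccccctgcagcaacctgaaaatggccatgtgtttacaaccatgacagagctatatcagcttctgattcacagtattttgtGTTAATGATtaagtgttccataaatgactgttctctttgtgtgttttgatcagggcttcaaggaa
Ptprc intron 20, proximal summit, chr1:138013642-138013841, minus strand: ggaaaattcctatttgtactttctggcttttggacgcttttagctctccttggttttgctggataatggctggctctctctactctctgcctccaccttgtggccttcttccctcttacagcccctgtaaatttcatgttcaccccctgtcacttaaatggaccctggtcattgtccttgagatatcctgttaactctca
Ptprc intron 2, strongest summit, chr1:138054702-138054901, minus strand: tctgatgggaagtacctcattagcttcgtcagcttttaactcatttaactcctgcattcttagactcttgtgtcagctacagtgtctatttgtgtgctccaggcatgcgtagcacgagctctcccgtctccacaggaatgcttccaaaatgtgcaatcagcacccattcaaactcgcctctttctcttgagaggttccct
Ptprc intron 2, weaker summit, chr1:138064252-138064451, minus strand: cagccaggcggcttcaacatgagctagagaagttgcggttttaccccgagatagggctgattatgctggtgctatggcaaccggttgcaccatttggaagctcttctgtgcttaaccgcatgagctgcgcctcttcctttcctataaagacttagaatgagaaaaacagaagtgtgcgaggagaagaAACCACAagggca
Spi1 upstream, far summit, chr2:90908973-90909172, plus strand: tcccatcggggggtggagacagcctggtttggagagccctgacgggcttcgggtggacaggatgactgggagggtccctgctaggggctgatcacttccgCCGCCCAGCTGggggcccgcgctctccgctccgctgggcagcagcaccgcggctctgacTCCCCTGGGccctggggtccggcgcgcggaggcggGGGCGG
Spi1 upstream, near summit, chr2:90916739-90916938, plus strand: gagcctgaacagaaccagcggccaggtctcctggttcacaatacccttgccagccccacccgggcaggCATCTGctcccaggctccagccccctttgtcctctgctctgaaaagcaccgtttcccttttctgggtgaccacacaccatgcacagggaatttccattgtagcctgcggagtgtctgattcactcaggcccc
Spi1 intron 2, strongest summit, chr2:90931827-90932026, plus strand: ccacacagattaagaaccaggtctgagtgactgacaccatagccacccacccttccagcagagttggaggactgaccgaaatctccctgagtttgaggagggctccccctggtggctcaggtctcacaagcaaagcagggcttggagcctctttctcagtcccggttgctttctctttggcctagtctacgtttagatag
Spi1 intron 2, weaker summit, chr2:90937814-90938013, plus strand: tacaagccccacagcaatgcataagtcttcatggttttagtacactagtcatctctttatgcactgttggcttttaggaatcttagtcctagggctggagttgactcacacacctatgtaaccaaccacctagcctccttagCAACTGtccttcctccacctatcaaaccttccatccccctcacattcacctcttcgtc
For comparison, the 150 bp before the canonical start are given for Ptprc and for Cd68, which had the higher summit at its own start.
Ptprc upstream of its start, chr1:138103050-138103199, minus strand: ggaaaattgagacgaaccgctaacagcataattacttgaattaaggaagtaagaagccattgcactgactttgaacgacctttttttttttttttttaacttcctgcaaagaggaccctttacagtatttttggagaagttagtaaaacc
Cd68 upstream of its start, chr11:69557068-69557217, minus strand: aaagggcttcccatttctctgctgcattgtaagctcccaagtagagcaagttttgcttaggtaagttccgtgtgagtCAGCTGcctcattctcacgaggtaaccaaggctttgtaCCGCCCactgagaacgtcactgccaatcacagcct
The far upstream window of Spi1 differed from the others in base composition, with 74% G and C and 17 CpG dinucleotides, whereas the other 7 summit windows held between 0 and 7. Its capitals mark 2 GC boxes, an E-box and an EBF match, and 1 GC box runs into the E-box. The RUNX match in the weaker intron 2 window of Ptprc lies on the strand opposite to the gene. The HNF1 match in the distal intron 20 window of Ptprc was 1 of 2 among the 68 intervals.

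For the 68 summit windows, motif counts are given beside the shares of all intervals, and no difference was tested. PU.1 letters were present in 2 windows (2.94%), beside 2.16% of all intervals, in a weak interval of Csf1r and a weak interval of Spi1. RUNX letters were present in 6 (8.82%), beside 5.01%, and C/EBP letters in 7 (10.3%), beside 7.81%. The IRF letters were found once (1.47%), beside 4.58% of all intervals, in the interval at the gene start of Csf1r. EBF letters were found in 2 windows (2.94%), beside 3.82%, and MAF letters in 1 (1.47%), the Cd3e interval, beside 1.76%. E-boxes, which are short, were present in 33 windows (48.5%), beside 48.1%, and GC boxes in 6 (8.82%), beside 8.15%. The windows with a GC box include those of the Cd68 intervals whose highest summits lay at Mpdu1 and Eif4a1. HNF1 letters were present in 2 windows (2.94%), beside 1.29%, and HNF4 letters in none, beside 0.884%. Among the 9 motifs counted in the 150 bp before the canonical start, PU.1, RUNX, C/EBP, EBF, MAF, HNF1 and HNF4 letters occurred in none of the 10 genes, where between 0.244% of all promoters (HNF4) and 5.07% (C/EBP) held them. An E-box lay there in 5 of the 10 genes (28.5% of all promoters) and a GC box in 2, Cd68 and Itgam (32.6%). A match of letters is not a bound site, and with 68 windows small counts carry little weight.

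Ptprc encodes CD45, the phosphatase found on nearly all leukocytes. The gene spans 112848 bp on the minus strand of chromosome 1 (GRCm39, chr1:137990599-138103446) and its region held 10 intervals, none within 1 kb of the start of another protein-coding gene. The interval at its start was among the weakest, with a fold enrichment of 1.90 (-log10 q, 2.21), with the summit 184 bp inside the canonical transcript. The strongest, chr1:138011153-138012376, had a fold enrichment of 11.9 (-log10 q, 127.6), above 89.9% of all intervals, and its highest summit lay in intron 20, 91439 bp from the canonical start. Other intervals in the same intron had 8.31 (chr1:138013493-138013870) and 3.01. The next strongest, chr1:138054249-138055239, had 11.5 and lay in intron 2, 48247 bp from the start. Intron 2 also held intervals of 5.63, 4.84 and 1.70. Thus 7 of the 10 intervals of Ptprc had their highest summit in intron 2 or intron 20. The remaining values were 2.68 in coding exon 23, 1.96 in coding exon 5 and the 1.90 at the start. The nearest start of another coding gene, that of Atp6v1g3, lay 98596 bp or more from every highest summit.

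**Figure D1:**
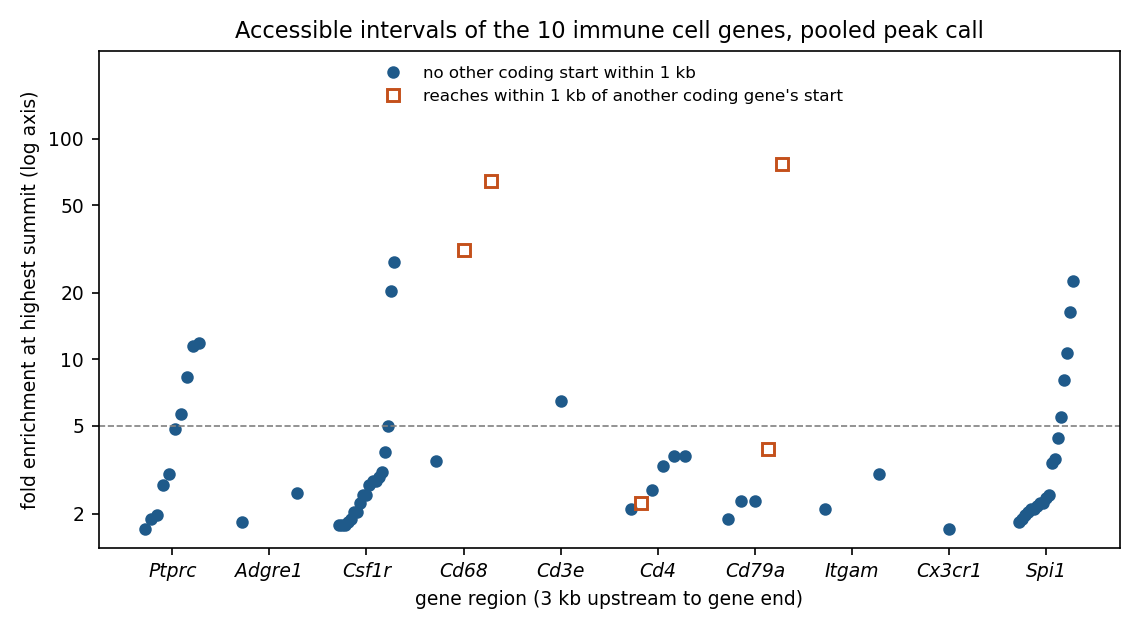
Fold enrichment (log axis) of each of the 68 intervals by gene, in ascending order within a gene. Open squares reach within 1 kb of the start of another coding gene, and the dashed line is the limit of 5. Filled points above the line occur in Ptprc, Csf1r, Cd3e and Spi1, and the highest squares, at 64.2 and 76.4, belong to intervals at Eif4a1 and Arhgef1.

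Among the genes of the myeloid lineage, Spi1 and Csf1r had the most intervals, 19 each, and 87.7% of all protein-coding genes had fewer. Spi1 encodes PU.1. Annotated transcripts of the gene (plus strand, chr2:90912562-90946101) begin at 7 positions, and the canonical one begins 13879 bp after the gene start. The strongest interval, chr2:90941832-90946720, was 4889 bp wide, held 16 summits and ran past the end of the gene, with its highest summit in coding exon 5 at a fold enrichment of 22.6 (-log10 q, 332.5). A separate summit of 10.3 in the same interval lay in intron 2. Intervals of 16.3 (chr2:90931218-90932938) and 10.7 (chr2:90937075-90939923) lay further upstream in intron 2, at 5486 and 11473 bp from the canonical start. The canonical start itself had 3.54, with the summit 634 bp inside the gene in the first exon. Upstream of the canonical start, an interval of 8.05 had its summit at 17368 bp and one of 5.50 at 9602 bp. The summit of 8.05, whose window is printed above as the far summit, lay 3489 bp before the annotated gene start. It was therefore outside the region of 3 kb, which only the end of its interval reached. The interval at the annotated gene start had 4.39, with its summit 12993 bp before the canonical start. Strong intervals therefore flanked the canonical start of Spi1 on both sides, and the start itself was below the limit. The other 12 intervals ranged from 1.83 to 3.40.

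Csf1r encodes the receptor for CSF1 and IL-34, on which tissue macrophages depend. It lies on the plus strand of chromosome 18 (61229714-61266535), and its canonical transcript begins 9176 bp after the gene start. An interval of 6826 bp (61238468-61245293) ran from just before the canonical start past exon 3 and held 19 summits. Its highest summit, in coding exon 3 and 4502 bp from the canonical start, had a fold enrichment of 27.6 (-log10 q, 440.9), the highest of all intervals of the 10 genes that lay away from other coding starts. A second summit of 13.1 lay in intron 1, 2807 bp from the canonical start, and another of 5.63 at 1205 bp in the same intron. The part of that interval within 1 kb of the canonical start was low, with summits between 2.49 and 3.08. The second strong interval of Csf1r had its summit 54 bp before the annotated gene start, at 20.3 (-log10 q, 285.0). The other 17 intervals ranged from 1.77 to 4.98 and continued to the last exon, so that intervals covered 52.3% of the region, as they covered 56.4% of that of Spi1, beside a median of 16.7% over all protein-coding genes.

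**Figure D2:**
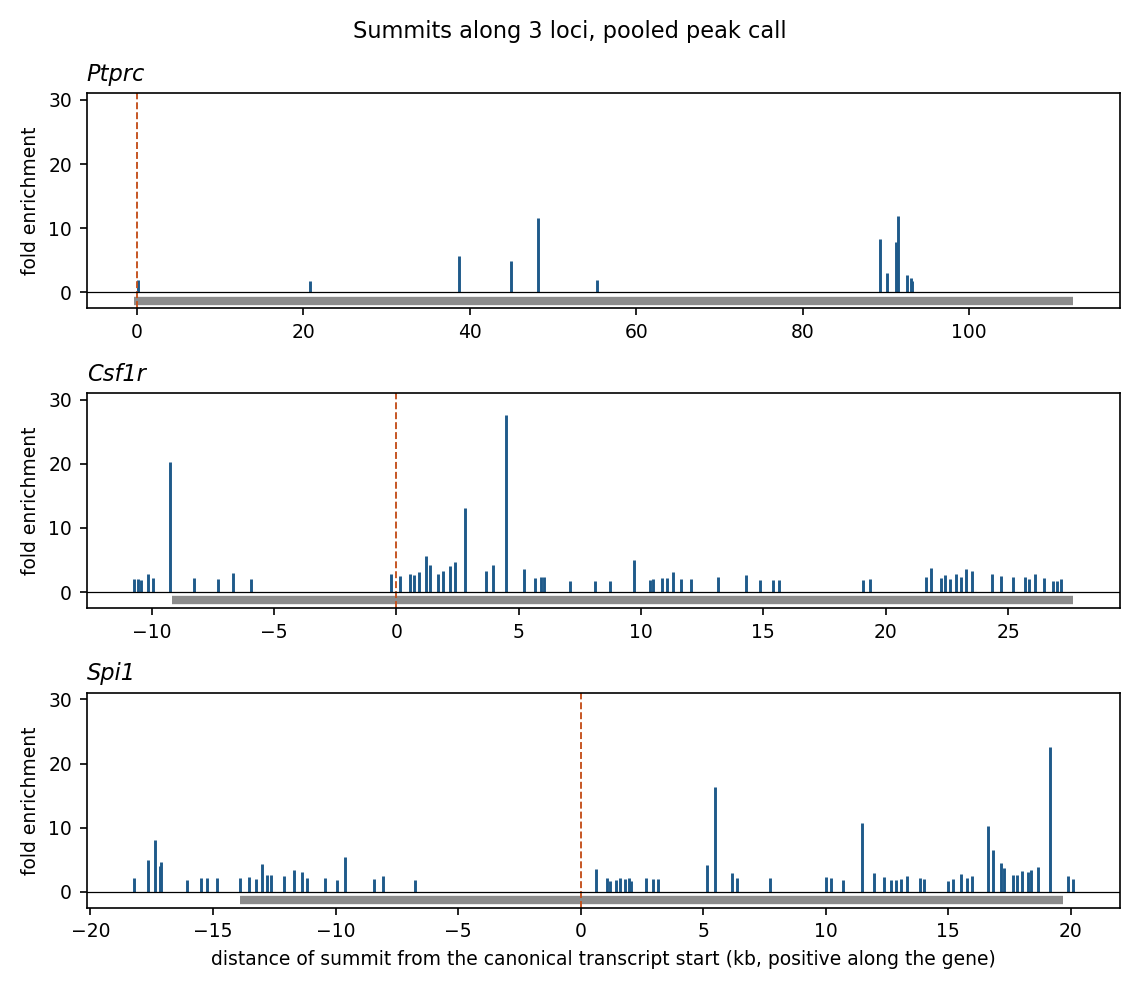
Fold enrichment of every summit along Ptprc, Csf1r and Spi1 against distance from the canonical transcript start in kb. Vertical lines are summits, the grey bar is the annotated gene and the dashed line is the canonical start. The highest summits, at 11.9, 27.6 and 22.6, stand inside the genes, and summits at the canonical starts are below 4.

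Cd68, a lysosomal glycoprotein of macrophages, is a gene of only 2031 bp (minus strand, chr11:69555037-69557067) between the starts of Mpdu1 and Eif4a1, and the values of its 3 intervals turned on these neighbours. The interval with 64.2 (chr11:69559730-69563971) had its summit 92 bp from the start of Eif4a1, a translation initiation factor. The interval that covered the whole of Cd68, chr11:69552044-69558077, had 31.2, with its highest summit 22 bp from the start of Mpdu1. Within that interval 16 summits were called. The one 58 bp upstream of the Cd68 start had a fold enrichment of 11.2 (-log10 q, 115.6), and one 134 bp inside the first exon had 6.42, whereas 5 summits over the rest of the gene were between 3.60 and 4.65. The Cd68 start therefore carried a summit of its own, higher than at the start of any other of the 10 genes except the gene start of Csf1r. Its remaining interval, upstream, had 3.47.

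The other myeloid genes had few and weak intervals. Adgre1 encodes F4/80, the classical macrophage marker. It spans 124955 bp (plus strand, chr17:57665573-57790527) with 2 intervals, 2.49 with the summit 105 bp inside the first exon and 1.83 in intron 17. Itgam encodes CD11b, an integrin subunit of macrophages and neutrophils. Its 2 intervals, 2.10 and 3.01, both lay in intron 12, over 35 kb from its start, where another coding gene model, Gm49368, is also annotated (plus strand, chr7:127661808-127717753). None lay at the start. Cx3cr1, the fractalkine receptor of monocytes and kidney macrophages (minus strand, chr9:119877749-119898945), had 1 interval of 139 bp at its canonical start, with a fold enrichment of 1.70 (-log10 q, 1.37). No interval of the peak list had a lower value.

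None of the 3 lymphocyte genes had a strong interval at its own start. Cd3e encodes a subunit of the T cell receptor complex. Its single interval (chr9:44910536-44911108) had 6.48 (-log10 q, 45.9) and lay in the 3′ UTR, 10226 bp from the start (minus strand, chr9:44910037-44920925). This interval reached within 1 kb of the start of the noncoding gene Gm48719. Cd4, the co-receptor of helper T cells that some macrophages also carry, had 6 intervals between 2.10 and 3.67 (minus strand, chr6:124841655-124874758). The highest value occurred in both the 3′ UTR and intron 1, at 22265 and 6031 bp from the canonical start, and no interval lay within 1 kb of the canonical start or of the gene start. Cd79a encodes a signalling chain of the B cell receptor (plus strand, chr7:24596740-24601622). The interval with the highest value in the whole set, 76.4 with a -log10 q of 1728.9 (chr7:24601217-24605860), overlapped its last exon but covered the start of Arhgef1. Its highest summit lay within Arhgef1, 1984 bp from the start of that gene. Of the 10 summits of the interval 1, of 3.80, lay within Cd79a. The start of Cd79a had 2.29, its other intervals away from Arhgef1 had 1.90 and 2.29, and 1 of 3.93 lay 871 bp from the start of Arhgef1.

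At the gene start, 6 of the 10 genes had an interval within 1 kb, beside 74.3% of all protein-coding genes, and 2 had a strong one, beside 64.3%. Those 2 were Csf1r and Cd68, and the value for Cd68 was that of the interval shared with Mpdu1. All 10 genes had CpG-poor promoters, defined by an observed to expected CpG ratio under 0.5 in 1000 bp around the gene start, where 49.6% of all genes did, and the median ratio was 0.226 beside 0.505. Among genes with CpG-poor promoters 50.4% had an interval at the start and 34.2% a strong one, so that the counts of 6 and 2 of 10 were nearer to those of CpG-poor genes than to those of all genes. At the canonical start, 7 of the 10 had an interval, beside 75.8%, and 2 a strong one, beside 66.2%, again Csf1r and Cd68. For Csf1r the summits near that start were low, as given above. The median of the highest summit within 1 kb of the gene start, set to 0 where there was none, was 2.10, beside 13.8 for all genes and 0 for CpG-poor ones.

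**Figure D3:**
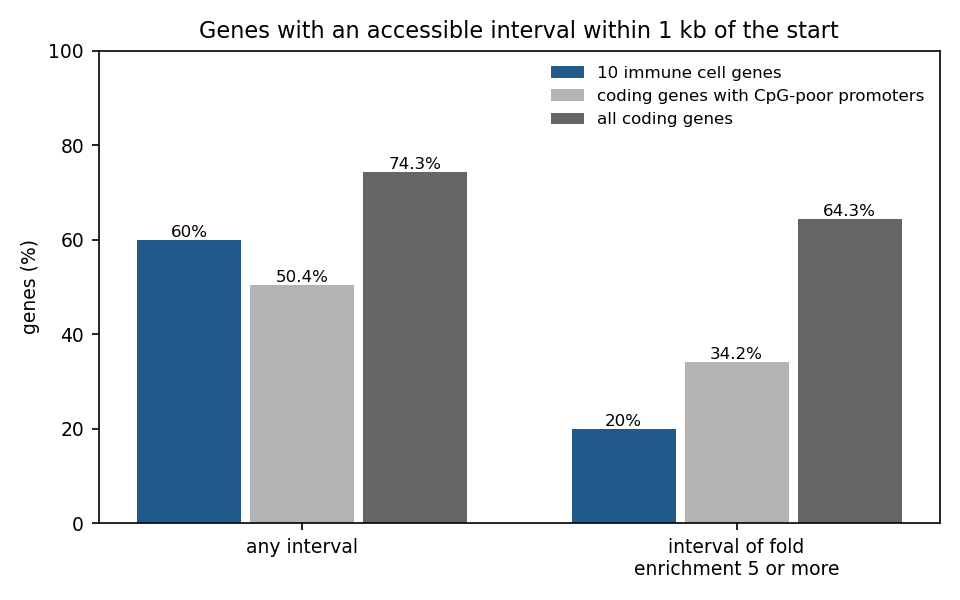
Percent of genes with any interval, and with an interval of fold enrichment 5 or more, within 1 kb of the gene start. Bars are the 10 immune cell genes, protein-coding genes with CpG-poor promoters and all protein-coding genes. For any interval the 10 genes lie between the CpG-poor genes (50.4%) and all genes (74.3%), and for strong intervals they are below both (34.2% and 64.3%).

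Away from the starts of other protein-coding genes, the region of 4 of the 10 genes held a strong interval. This held for 65.8% of all protein-coding genes and for 5180 of the 10797 with CpG-poor promoters. The interval of Cd3e, 1 of the 4, reached within 1 kb of a noncoding start. The median of the strongest fold enrichment away from other coding starts was 3.57, beside 13.2 for all genes and 4.45 for CpG-poor ones. Counting all intervals, the genes had a median of 4, the same as all genes, beside 2 for CpG-poor ones. Their median per 10 kb was 1.26, beside 1.86 for all genes and 1.02 for CpG-poor ones. Per 10 kb, the values ran from 0.156 in Adgre1 to 6.34 in Cd79a, with Cd68 at 5.96, Spi1 at 5.20 and Csf1r at 4.77. Those of Cd68 and Cd79a include intervals near other coding starts, without which Cd68 had 1 interval and Cd79a 3. By place of the highest summit, 30 of the 68 intervals were intronic, 17 upstream of the canonical start, 11 in coding exons, 5 in 3′ UTRs, 3 in 5′ UTRs and 2 downstream.

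The order of the 10 genes by their strongest interval away from other coding starts was Csf1r (27.6), Spi1 (22.6), Ptprc (11.9), Cd3e (6.48), Cd4 (3.67), Cd68 (3.47), Itgam (3.01), Adgre1 (2.49), Cd79a (2.29) and Cx3cr1 (1.70). For Cd68 this rule leaves out the interval shared with Mpdu1, and with it the summit of 11.2 at the Cd68 start. Below a fold enrichment of 20 all values in the list were whole multiples of 0.0655. If each step stands for 1 read, the exact Poisson 95% intervals were 25.0 to 30.3 for Csf1r, 20.3 to 25.1 for Spi1, 10.2 to 13.8 for Ptprc and 5.27 to 7.89 for Cd3e, for counting error only. Those of Csf1r and Spi1 overlapped slightly, while those of Ptprc and Cd3e overlapped neither each other nor any other gene's. From Cd4 (2.77 to 4.76) down to Cx3cr1 (1.11 to 2.49) each interval overlapped that of the next gene. Each value was picked as the highest among a gene's intervals, and genes differ in how many they have. Overlap or its absence therefore does not establish an order of the genes.

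Wider lists of leukocyte marker genes, which include the 10 genes, also held few strong intervals at gene starts. Counts are of intervals that reach the window of 1 kb around the start, and medians and highest values are of summits inside it. Of 9 pan-leukocyte genes 2 had a strong interval at the start, with a median highest summit of 2.16, and the highest was Lcp1, an actin-bundling protein, at 18.9. That interval of Lcp1 also reached within 1 kb of another coding start, and its canonical start had 2.82. Of 25 macrophage, monocyte and dendritic genes 6 did, with a median of 2.49, with the highest summit at the transcription factor gene Irf8 (24.7). T and NK genes had 3 of 19 (median 0), with the highest at the transcription factor gene Tcf7 (14.8). B and plasma genes had 2 of 10 (median 0), with the highest at the complement receptor gene Cr2 (9.36). Neutrophil and mast cell genes had 1 of 8 (median 0), and their highest summit was that of the chemokine receptor Cxcr2 at 2.55. The 1 strong interval had its highest summit outside the window, so by summits the count was 0. Hence 14 of 71 immune genes had a strong interval at the start, beside 64.3% of all protein-coding genes and 34.2% of those with CpG-poor promoters, to which 62 of the 71 belonged. The 34.2% is not a matched background for the 14, because some of them had promoters that were not CpG-poor. The 3 T and NK genes had observed to expected CpG ratios of 0.621 to 0.790, Irf8 had 0.735 and Lcp1 0.587. Others of the 14, such as Cr2 (0.407), Csf1r (0.405) and Cd68 (0.231), were CpG-poor.

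By comparison, strong intervals at the start were found in 7 of 13 endothelial genes (median 4.58), 7 of 13 stromal genes (4.45) and 6 of 9 podocyte genes (9.76). They were found in 10 of 12 proximal tubule genes (9.07), where the summit of the water channel gene Aqp1 was highest at 35.1, and in 6 of 9 genes of the distal tubule and collecting duct (8.51), where the summit of Umod was highest at 20.8. Of 14 genes of lineages foreign to the kidney, such as muscle and neuron regulators, 2 had one, and their median was 2.26. By summits inside the window, the counts were 6 endothelial, 6 stromal, 5 distal tubule and collecting duct genes and 1 of foreign lineages. Those of podocyte and proximal tubule genes were unchanged. The medians of the pan-leukocyte and macrophage lists were thus close to that of the foreign lineages. Those of the T and NK, B and plasma, and neutrophil and mast lists, all 0, were below it. The median of the proximal tubule list was higher, though below the 13.8 of all protein-coding genes. The lists differed in promoter composition, with CpG-poor promoters in 22 of 25 macrophage genes, 11 of 12 proximal tubule genes, 8 of 9 distal tubule and collecting duct genes, 12 of 13 endothelial and 12 of 13 stromal genes, but in 4 of 9 podocyte genes and 7 of 14 genes of foreign lineages.

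**Figure D4:**
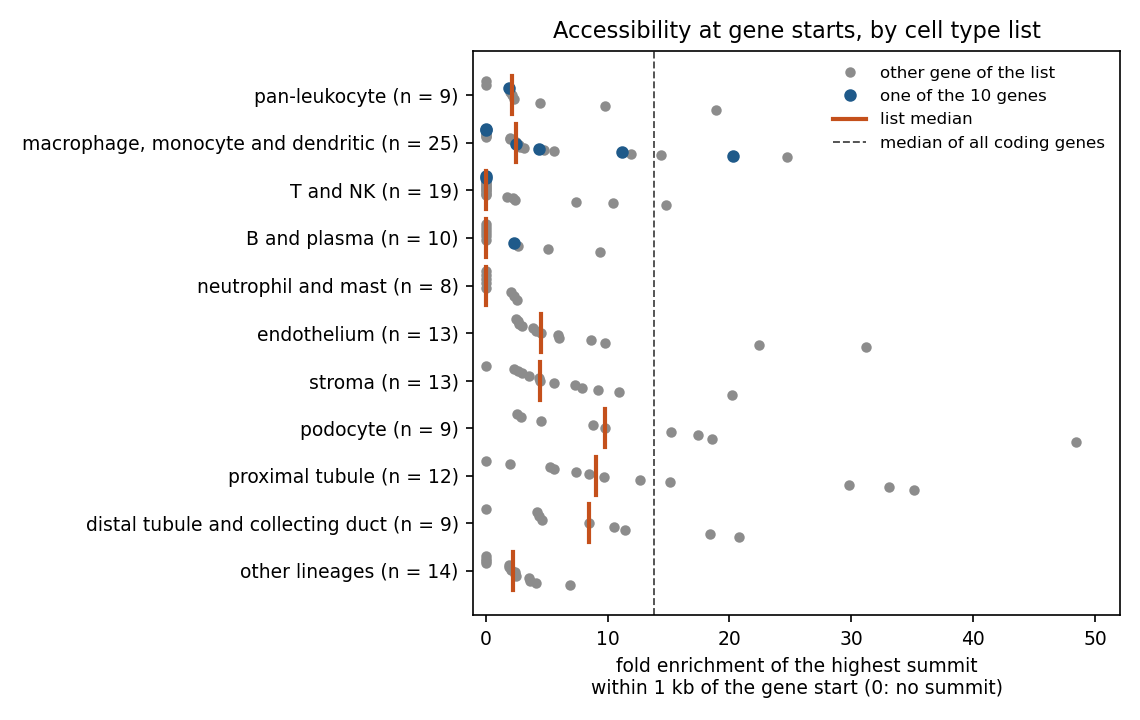
Fold enrichment of the highest summit within 1 kb of the gene start for each gene of 11 marker lists, with 0 where there was none. Points are genes, with the 10 immune cell genes in blue, short vertical bars are list medians and the dashed line is the median of all protein-coding genes (13.8). Medians of the 5 leukocyte lists lie between 0 and 2.49, and those of the 3 epithelial lists between 8.51 and 9.76.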

How the data were processed

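ATAC-seq of mouse kidney nuclei was represented by 1 peak list and 1 summit list for 3 WT and 3 Acly cKO libraries, grouped by the genotype label. By their methods, the authors used fastp for trimming and Bowtie2 2.3.4.3 for alignment to mm39, removed duplicates, kept uniquely mapped reads, called peaks and summits with MACS3 3.0.0, and removed blacklisted regions with bedtools 2.29.1. That libraries were pooled is taken from the peak names. The deposited list gives, for each of 749750 summits, the fold enrichment over background (a ratio) and the -log10 q, and also the summit's distance from the interval start. The 750624 deposited summits before filtering carry the -log10 q only.

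Summits were grouped into distinct intervals, each taking the values of its highest summit by -log10 q. Regions were taken from GENCODE M39 on GRCm39, counted from 1. "Canonical" is the transcript marked so by Ensembl, and numbers of exons and introns follow it. All protein-coding genes were treated alike to give the background shares. No column of the files belonged to a library, so the depth of single libraries is unknown from them, and no test, replicate error or genotype comparison was made. Poisson intervals treat a step of fold enrichment as 1 read. Steps below a fold enrichment of 20 were whole within 0.05 of a step in 100% of values, where chance gives 10%. A pile-up divided by the same background everywhere gives such steps, and a wide interval can join the elements of neighbouring genes.

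The 10 genes, the 11 marker lists, the 10 motifs and the thresholds were chosen with earlier results of these data known. All 10 genes are named, each with its strongest interval, the interval at its start and the strongest interval over 1 kb from the start. Neighbouring protein-coding genes that start within 1 kb of such an interval are named too. Of noncoding genes only Gm48719 at Cd3e is named. Noncoding starts also lay within 1 kb of described intervals of Cd68, Cd79a, Cx3cr1 and Spi1. Of each other list the highest or lowest gene at the start may be named. Promoter sequences given in the reference tables are on another build and were not used here. Promoter sequences are printed for 2 genes, and the promoter count of 1 motif is not reported here. Overlap, place and motif searches were tested on simulated data. Alternatives covered the q and fold enrichment limits, the region, the start window, nearby genes and the motif window. Python 3.11.15, pandas 2.3.3, numpy 2.4.6, scipy 1.17.1, pysam 0.24.0 and samtools 1.23.1 were used.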

Additional observations from a re-analysis of the deposited data

How the results depend on the processing

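No paired analysis was possible because the peak list is a single pooled call with no value per library, and for the same reason no library could be left out. The number of intervals over the 10 genes was 68 and became 39 at a q under 1e-05, 15 at a fold enrichment of 5 or more, 111 with 20 kb of upstream sequence and 213 when summits were counted. The number of genes with an interval at the start was 6 and became 2 at a fold enrichment of 5 or more. Without intervals near another coding start, the strongest value was 3.47 for Cd68 and 2.29 for Cd79a. With the start of the canonical transcript, an alternative chosen after the data were seen, 7 genes had an interval at the start.

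For the lists, the number of genes with a strong interval at the start rose when any interval was counted, to 7 (pan-leukocyte), 17 (macrophage, monocyte and dendritic), 6 (T and NK), 5 (B and plasma), 3 (neutrophil and mast), 13 (endothelium), 12 (stroma) and 10 (other lineages). At a fold enrichment of 10 or more it was 1 (pan-leukocyte), 0 (B and plasma), 2 (endothelium), 3 (stroma) and 1 (other lineages). The remaining lists had 6 (macrophage, monocyte and dendritic), 2 (T and NK), 1 (neutrophil and mast), 4 (podocyte), 7 (proximal tubule) and 4 (distal tubule and collecting duct). At that limit 6 of 25 macrophage genes stood beside 2 of 13 endothelial and 3 of 13 stromal genes. The lower share of the macrophage list in these counts therefore depended on the limit of 5. Starts of any transcript gave 5 T and NK genes, and leaving out intervals near another coding start gave 1 pan-leukocyte gene, without Lcp1, and 1 gene of other lineages. With a summit window of 100 bp, PU.1 and EBF letters occurred in 0 intervals, E-boxes in 17 and HNF1 letters in 1. With 400 bp, C/EBP letters occurred in 11, EBF letters in 4, E-boxes in 51 and GC boxes in 10. Longer windows hold more letters by construction. In all, 31 of 111 alternative values moved by over 1.5 times and 80 did not. The depth of the libraries is not known, so that genes without an interval at the start had none detectable at this q limit.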
